A study of Homo sapiens with 2 samples.

Results

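The ubiquitin ligase APC/C (anaphase-promoting complex, also named the cyclosome) is described here through 8 of its regulators and partner enzymes. They were read in the mRNA of cisplatin-treated cells, control and FZR1 ko, labelled as the breast cancer line T-47D. The genes are the coactivators FZR1 and CDC20, the inhibitors FBXO5, MAD2L1, BUB1B and BUB3, and the E2 enzymes UBE2C and UBE2S. They were chosen by their known function, with earlier results of these data known, and matched through Entrez gene IDs, and all 8 were found among the 23033 genes with a value. All 8 also reached 1 FPKM in one library or both, as did 13554 genes in all, and these were the genes compared.

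The ligase marks cyclins, securin and other cell cycle proteins for destruction by the proteasome. CDC20 directs it from metaphase to anaphase, and FZR1 (also called CDH1) directs it from late mitosis through G1 and after DNA damage in G2. FBXO5 (EMI1) blocks the ligase in S and G2, and MAD2L1, BUB1B and BUB3 join CDC20 in the mitotic checkpoint complex, which holds it back until chromosomes are attached. UBE2C places the first ubiquitin on a substrate, and UBE2S extends the chain.

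The libraries were made from total RNA of control cells, labelled WT, and of FZR1 ko cells. Both are labelled as the luminal line T-47D and both were treated with cisplatin at 2 µg/ml, so untreated cells were not analysed here. The ko line was made with a lentiviral CRISPR/Cas9 vector and single cell cloning, so it may carry traits of its clone. Each genotype had 1 library, so no difference below has a replicate check and no p-value is given. The deposited values are FPKM, that is fragment numbers corrected for the length of the transcript and the size of the library, so levels can be compared between genes, while the depth behind a value is unknown. The duration of the treatment is not given in the sources used here.

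To each FPKM value 1 was added, and the log2 of the ko value over the control value is called the log2 ratio. The median log2 ratio of all genes compared was -0.0048. The luminal markers ESR1, PGR and GATA3 went against the luminal label, as did the level of the mesenchymal marker VIM. The identity of the cells therefore rests on the label. Of 12 luminal genes 6 reached 1 FPKM in a library, and ESR1 (0.04 FPKM in control cells and 0.13 FPKM in ko cells), PGR (0.01 FPKM and listed at 0) and GATA3 (0.31 and 0.15 FPKM) did not. E-cadherin (Entrez gene 999, 0.69 and 0.62 FPKM), KRT19 (0.20 and 0.16 FPKM) and SPDEF (0.19 and 0.31 FPKM) did not either. KRT8 (829 and 998 FPKM) and KRT18 (552 and 740 FPKM), keratins of simple epithelia, were high, and XBP1 (93.4 and 72.6 FPKM), TFF1 (9.80 and 7.52 FPKM) and FOXA1 (5.07 and 4.65 FPKM) were detected. Of 11 mesenchymal and basal genes 8 reached 1 FPKM, led by VIM (315 and 295 FPKM), and the basal markers KRT5, KRT14 and TP63 did not, with KRT14 listed at 0 in FZR1 ko. The summed level of the luminal list was 1495 FPKM in control cells and 1836 FPKM in ko cells, and that of the mesenchymal and basal list was 376 and 416 FPKM. Most of the first sum was KRT8 and KRT18 and most of the second was VIM, so neither sum stands for its list. In these lists EPCAM (3.90 and 11.5 FPKM), CDH2 (2.97 and 15.3 FPKM), EGFR (7.73 and 22.2 FPKM) and AXL (16.02 and 37.84 FPKM) were over 2-fold higher in FZR1 ko, against 6.79% of all genes compared, and 0 genes were 2-fold lower. With a pseudocount of 5 FPKM EPCAM was short of 2-fold. In all, 3 luminal genes were higher and 3 lower, and 5 mesenchymal and basal genes were higher and 3 lower. Their part in the results on the APC/C genes was not tested.

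The study lists 4 guides against FZR1, without naming the one used for the sequenced cell line. A primer it lists for an FZR1 rescue construct carries synonymous changes in the target of sgRNA2. The guides are shown because they define what the ko label stands for. Each sequence is the guide in lower case followed by its PAM in capitals, 5′ to 3′, with its place in FZR1 on hg38.

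sgRNA1: gaagcggtctccgtgcttgcTGG
sgRNA2: ctgaccgctgtatccgcttcTGG
sgRNA3: gatcatgcggtcgcggctccCGG
sgRNA4: accactgcagtgtatcgacaCGG

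FZR1 lies on chr19:3506311-3538334, plus strand. The target of sgRNA1 is chr19:3525923-3525942 on the minus strand, in exon 3 of the canonical GENCODE 44 transcript. The target of sgRNA3 is chr19:3531947-3531966 on the minus strand, in exon 10. Those of sgRNA2 and sgRNA4 are chr19:3532541-3532560 and chr19:3532581-3532600 on the plus strand, both in exon 11. All 4 targets are in coding sequence, and the predicted cuts fall at codons 43, 288, 383 and 397 of 493, in the order in which they lie along the gene.

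The coactivator mRNAs were both slightly lower in FZR1 ko and neither passed 2-fold. FZR1 was at 12.3 FPKM in control cells and at 10.1 FPKM in ko cells (log2 ratio -0.26), so the targeted mRNA was still present, at 0.822 times its control level. Edits of a few bases can leave an mRNA in place, and the level therefore does not check the label. The study reports a check of the knockout in T-47D cells at the protein level, by western blot. CDC20 was at 80.2 FPKM in control cells and at 70.5 FPKM in ko cells (log2 ratio -0.18), and 38.4% of all genes compared had a lower ratio. CDC20 mRNA was 6.53 times the level of FZR1 mRNA in control and 6.98 times in FZR1 ko, so on these values their balance hardly differed. With the trend of transcript length and GC content removed, their log2 ratios lay further apart, at -0.44 for FZR1 and -0.070 for CDC20.

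The inhibitors went in different directions. FBXO5, on chr6:152970535-152983579, was at 51.6 FPKM in control cells and at 24.2 FPKM in ko cells. Its log2 ratio of -1.06 made it the single member past 2-fold, and 5.82% of all genes compared had a lower one. It stood just past the threshold, and its log2 ratio was -0.95 with a pseudocount of 5 FPKM and -0.94 once the trend with transcript length and GC content was removed, both short of 2-fold. The level of FBXO5 mRNA relative to FZR1 mRNA was 4.20 in control and 2.40 in FZR1 ko.

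BUB1B (BUBR1), the checkpoint kinase-like protein that binds CDC20 through KEN boxes, was the single member with the higher value in FZR1 ko. It lies on chr15:40161069-40221123 and was at 9.12 FPKM in control cells and at 15.5 FPKM in ko cells (log2 ratio 0.71). Its partners in the mitotic checkpoint complex were close to level. MAD2L1 (MAD2), which closes around CDC20, was at 57.0 FPKM in control cells and at 47.01 FPKM in ko cells (log2 ratio -0.27). BUB3, which carries BUB1B to kinetochores, was at 97.2 FPKM in control cells and at 90.5 FPKM in ko cells (log2 ratio -0.10). The level of BUB3 mRNA was 10.7 times that of BUB1B in control and 5.83 times in FZR1 ko, and MAD2L1 mRNA was 6.25 times and then 3.03 times that of BUB1B. BUB1B was the lowest of the 8 genes in control and the seventh in FZR1 ko, where it stood above FZR1.

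Both E2 enzymes were lower in FZR1 ko, by similar amounts and both short of 2-fold. The ratio of their levels, UBE2C to UBE2S, was 1.74 in control and 1.58 in FZR1 ko. UBE2C (UBCH10), on chr20:45812644-45816952, was at 286 FPKM in control cells and at 155 FPKM in ko cells (log2 ratio -0.88). UBE2S, on chr19:55399745-55407788, was at 164 FPKM in control cells and at 98.1 FPKM in ko cells (log2 ratio -0.74). UBE2C and UBE2S were the 2 most abundant of the 8 mRNAs in both libraries, and the level of UBE2C lay above that of 98.2% of genes compared in control and 96.5% in FZR1 ko.

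**Figure D1:**
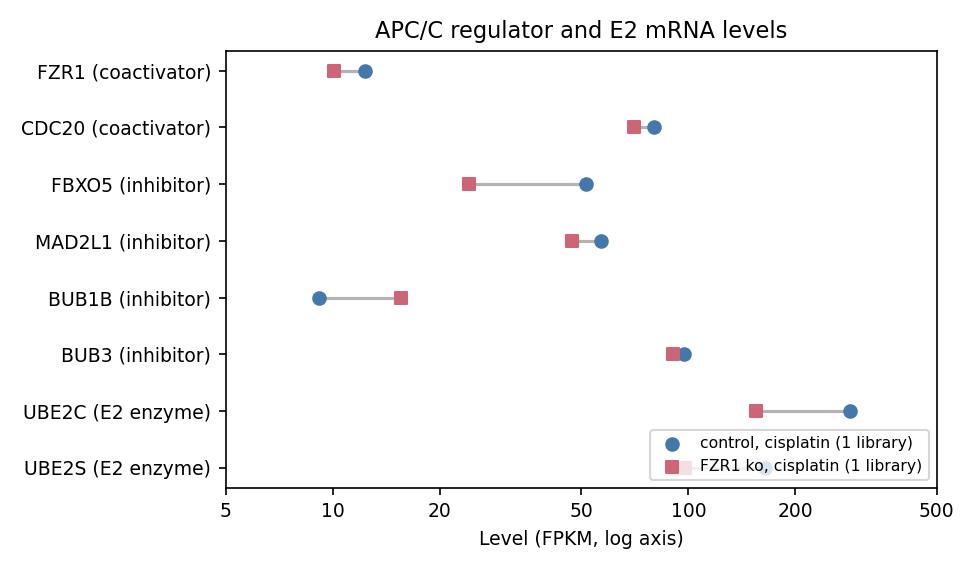
Level of each of the 8 genes in FPKM on a log axis, with control as circles and FZR1 ko as squares, 1 library each, so there are no error bars. The square lies left of the circle for 7 genes, most clearly for FBXO5, UBE2C and UBE2S, and right of it for BUB1B.

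Counted together, 7 of the 8 genes were lower and 1 was higher in FZR1 ko, and the median log2 ratio was -0.27. Of all 13554 genes compared, 6812 were lower and 6726 were higher. Past 2-fold, 1 of 8 was lower and 0 were higher. Among all genes compared, 6.72% were at least 2-fold lower, 6.79% were at least 2-fold higher and 13.5% were past 2-fold in either direction, so 1 of 8 is near the background. At a threshold of 1.5-fold, 3 of 8 were lower (FBXO5, UBE2C and UBE2S), against 17.6% of all genes, and 1 of 8 was higher (BUB1B), against 18.0%. BUB1B was short of 1.5-fold with a pseudocount of 5 FPKM, at 0.54. With 8 genes and 1 library per genotype these shares carry little precision.

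**Figure D2:**
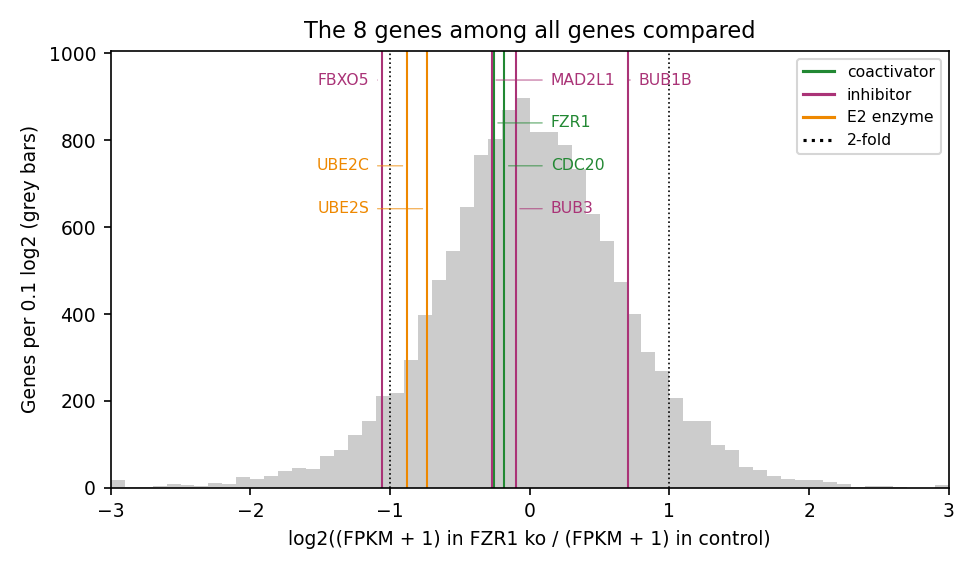
Log2 ratios of all 13554 genes compared (grey bars, with values beyond 3 in either direction in the end bars) and of the 8 genes (coloured lines by role), with dotted lines at 2-fold. FBXO5 and the E2 enzymes lie on the left shoulder, from -1.06 to -0.74, while FZR1, CDC20, MAD2L1 and BUB3 lie between -0.27 and -0.10 and BUB1B lies at 0.71.

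The E2 enzymes were next set beside other E2 genes. UBE2D2 was at 21.3 FPKM in control cells and at 41.2 FPKM in ko cells (log2 ratio 0.92). UBE2D3 was at 60.1 FPKM in control cells and at 51.3 FPKM in ko cells (log2 ratio -0.22). UBE2D4 was at 3.67 FPKM in control cells and at 8.34 FPKM in ko cells (log2 ratio 1), exactly at the 2-fold threshold. These 3 genes encode very similar proteins, and reads from similar stretches can be assigned to either, so their values are uncertain.

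A wider comparison was chosen after the values were seen. In it 31 protein-coding genes with a symbol of the form UBE2 and a letter were set side by side, with a median log2 ratio of 0.22. Of these, 0 were at least 2-fold lower and 4 were at least 2-fold higher in FZR1 ko, against 6.72% and 6.79% of all genes compared. The count of 4 depends on the processing. One of them, UBE2D4, was short of 2-fold with a pseudocount of 5 FPKM. With the trend of transcript length and GC content removed, UBE2D2 (1.02) and UBE2E1 (1.02) passed 2-fold as well. UBE2C and UBE2S had the 2 lowest log2 ratios of these 31, followed closely by UBE2Q1 (-0.71) and UBE2A (-0.71). The other 29 genes had a median of 0.29, with 16 higher and 13 lower. UBE2C and UBE2S also had the 2 highest levels of the 31 in control, and direction went with level. All genes from UBE2B (30.5 FPKM in control) upwards were lower in FZR1 ko, and all below it but UBE2W (3.05 FPKM) were higher. The part of level in the place of UBE2C and UBE2S was not tested. With the trend of transcript length and GC content removed, UBE2C kept the lowest value (-0.82), and UBE2S (-0.62) came in place 4, after UBE2Z (-0.65) and UBE2A (-0.62).

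**Figure D3:**
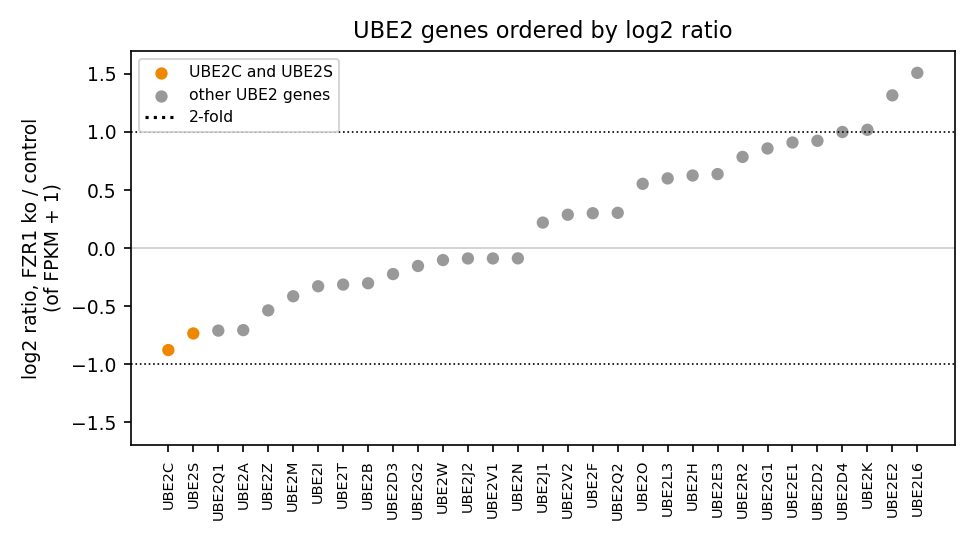
Log2 ratios of the 31 UBE2 genes in rising order, 1 point per gene, with dotted lines at 2-fold. UBE2C and UBE2S (orange) stand at the lower end, at -0.88 and -0.74, and UBE2D2 and UBE2D4 stand near the upper end.

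The start regions of the genes were compared for elements of cell cycle promoters. The CHR element, TTTGAA or TTTAAA, is bound by the MuvB core of the DREAM and B-MYB complexes, and CCAAT is bound by NF-Y. Both are known from genes expressed in G2 and mitosis. RefSeq start regions of GRCh38.p14 (250 bases before to 50 after a start site) were at hand for 6 of the 8 genes, with UBE2C and BUB3 missing, in 8 windows, since FBXO5 and FZR1 have 2 windows each. Both strands were searched, and TTTAAA reads the same on both. Shown are the 200 bases before the start site of FBXO5 (of its 2 windows the downstream one, since the upstream one held 0 matches), CDC20, BUB1B and UBE2S, which cover the lowest, a nearly level and the highest log2 ratio and an E2 enzyme. The windows were picked with the matches and log2 ratios known. Matches are in capitals, and TTCAAA and ATTGG are matches on the other strand.

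FBXO5, chr6:152983042-152983241, minus strand: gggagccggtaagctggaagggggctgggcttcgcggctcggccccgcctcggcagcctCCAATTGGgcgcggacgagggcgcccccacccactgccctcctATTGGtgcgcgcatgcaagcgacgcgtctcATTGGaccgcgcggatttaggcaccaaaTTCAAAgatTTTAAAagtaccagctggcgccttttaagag
CDC20, chr1:43358781-43358980, plus strand: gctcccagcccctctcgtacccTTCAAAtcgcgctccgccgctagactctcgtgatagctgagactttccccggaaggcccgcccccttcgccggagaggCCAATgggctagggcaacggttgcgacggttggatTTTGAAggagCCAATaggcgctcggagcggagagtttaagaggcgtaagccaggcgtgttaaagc
BUB1B, chr15:40160869-40161068, plus strand: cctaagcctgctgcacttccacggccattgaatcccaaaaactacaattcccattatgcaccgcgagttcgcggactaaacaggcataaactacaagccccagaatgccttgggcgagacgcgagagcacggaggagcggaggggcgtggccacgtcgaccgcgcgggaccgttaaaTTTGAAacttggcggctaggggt
UBE2S, chr19:55407789-55407988, minus strand: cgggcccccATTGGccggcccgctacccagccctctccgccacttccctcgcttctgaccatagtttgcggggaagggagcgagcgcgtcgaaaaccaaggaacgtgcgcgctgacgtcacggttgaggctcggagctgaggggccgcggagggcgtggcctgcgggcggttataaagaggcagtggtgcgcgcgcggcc

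A CHR match began 40 bases before the start site of FBXO5, 65 bases before that of CDC20 and 23 bases before that of BUB1B, one lay 226 bases before one start of FZR1, and one lay 24 bases after that of MAD2L1. The second windows of FBXO5 and FZR1 held 0 matches. FBXO5 also held TTTAAA beginning 31 bases before the start and 4 CCAAT matches, of which the pair that began 141 and 138 bases before the start overlap on opposite strands. CDC20 had CCAAT matches beginning 100 and 55 bases before the start and a second TTTGAA 178 bases before it. The window of UBE2S held no CHR match and 1 CCAAT match, 191 bases before the start. MAD2L1 had 1 CCAAT match, 229 bases before the start, and BUB1B and FZR1 had 0. Of all 35116 RefSeq windows of this length, 15.2% held TTTGAA, 12.2% held TTTAAA, 23.99% held either and 34.6% held CCAAT. A match describes letters and not binding. The 5 genes with a CHR match in a window had log2 ratios from -1.06 to 0.71, and UBE2S, without one, had -0.74.

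Other genes of the pathway were read from lists, with all genes compared as the background. The 14 APC/C core subunits had a median log2 ratio of 0.15, with 10 higher and 4 lower in FZR1 ko. ANAPC1, the largest scaffold subunit, was the single one past 2-fold, with 10.6 FPKM in control cells and 24.01 FPKM in ko cells, a log2 ratio of 1.11, which makes 1 of 14, against 13.5% of all genes compared. It was short of 2-fold with a pseudocount of 5 FPKM and, at 0.83, with the trend of length and GC content removed. Of 10 further spindle checkpoint genes 7 were higher and 3 lower, with a median of 0.14, and 2 were past 2-fold, against 13.5% of all genes compared. ZWILCH, of the RZZ complex at kinetochores, had 7.03 and 18.3 FPKM (1.27) and was short of 2-fold with a pseudocount of 5 FPKM. MAD2L1BP (p31comet), which helps to take MAD2L1 out of the checkpoint complex, was at 71.2 FPKM in control cells and at 26.8 FPKM in ko cells (-1.38). MAD2L1 mRNA was at a lower level than MAD2L1BP mRNA in control and at 1.76 times its level in FZR1 ko. Of the other APC/C inhibitors, MAD2L2 had 122 and 98.0 FPKM (-0.31) and FBXO43 (EMI2) 2.35 and 2.43 FPKM (0.034).

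The mRNAs of 16 proteins that APC/C with FZR1 is known to target had a median log2 ratio of -0.17, with 11 lower, 5 higher and 0 past 2-fold in either direction, against 13.5% of all genes compared. The extremes were ANLN, with 37.2 and 63.1 FPKM (0.74), and CKAP2, with 38.5 and 23.7 FPKM (-0.68). These are mRNA levels and say nothing of the proteins. A list of 24 G2/M genes, 5 of them also among the 16, had a median of -0.23, with 15 lower, 9 higher and 0 past 2-fold (again against 13.5%), and its lowest were NEK2 (58.3 and 32.5 FPKM, -0.82) and CCNB2 (48.7 and 27.8 FPKM, -0.79). UBE2C, at -0.88, and FBXO5, at -1.06, lay below all 24, but with the trend of transcript length and GC content removed MKI67, at -0.95, lay below both (-0.82 and -0.94). A list of 20 G1/S genes had a median of -0.12, with 13 lower and 7 higher. In it 3 of 20 genes were over 2-fold lower, against 6.72% of all genes compared, namely the E cyclins CCNE1 (56.7 and 22.9 FPKM, -1.27) and CCNE2 (77.3 and 24.3 FPKM, -1.63) and E2F1 (83.4 and 38.8 FPKM, -1.09). In bulk RNA, fewer cells in a phase and less mRNA per cell cannot be told apart. The study measured phases by flow cytometry and reports that loss of FZR1 promoted arrest of cell division under cisplatin. From EdU labelling it reports no impact of the ko on proliferation.

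**Figure D4:**
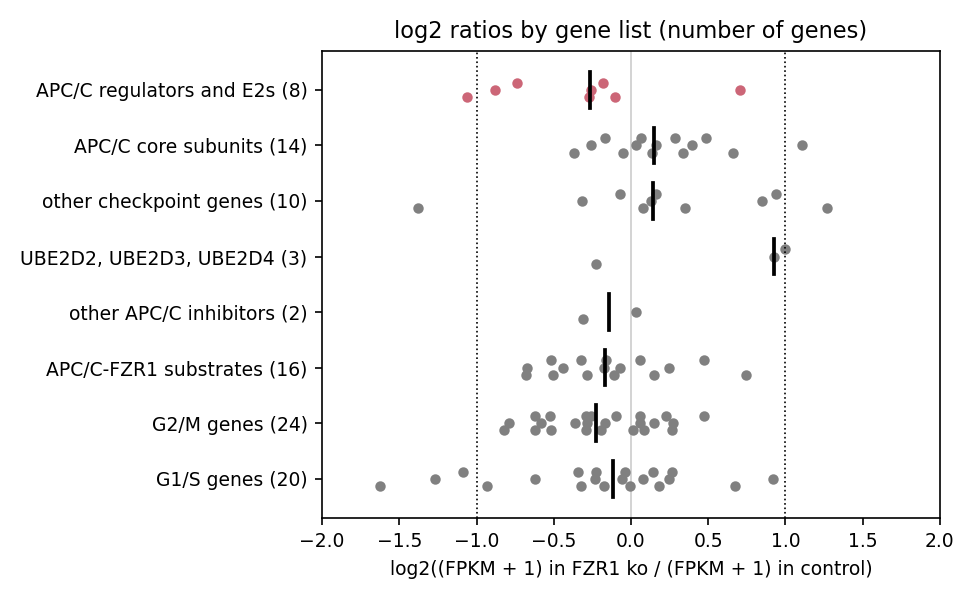
Log2 ratios of the 8 genes (red) and of the other lists (grey), 1 point per gene, with the number of genes in brackets, the median of each list as a black bar and dotted lines at 2-fold. The 8 genes have a median of -0.27 and the core subunits one of 0.15.

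The log2 ratio moved with transcript length. Among protein-coding genes compared, split into 5 equal groups, the group with the shortest canonical transcripts (276 to 1742 nt) had a median log2 ratio of -0.064, and the group with the longest (5604 nt and more) had one of 0.25. UBE2C, with 777 nt, belongs to the shortest group, and FBXO5 (2054 nt) and UBE2S (2559 nt) belong to the next, whose median was -0.060. FZR1 (5178 nt) and MAD2L1 (5227 nt) were in the next to longest group, with a median of 0.095, and BUB3 (7703 nt) in the longest. With the trend of length and GC content removed, the log2 ratios were -0.44 for FZR1, -0.070 for CDC20, -0.94 for FBXO5, -0.23 for both MAD2L1 and BUB3, and 0.67 for BUB1B. Those of UBE2C and UBE2S were -0.82 and -0.62. No gene changed direction, the median of the 8 genes was -0.34, and 0 of them were past 2-fold, where 770 of 13145 genes were 2-fold higher and 851 lower. The log2 ratio also moved with level, with a median of 0.13 in the lowest of 5 groups by mean FPKM and -0.050 in the highest, which holds CDC20, MAD2L1, BUB3, UBE2C and UBE2S.

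**Figure D5:**
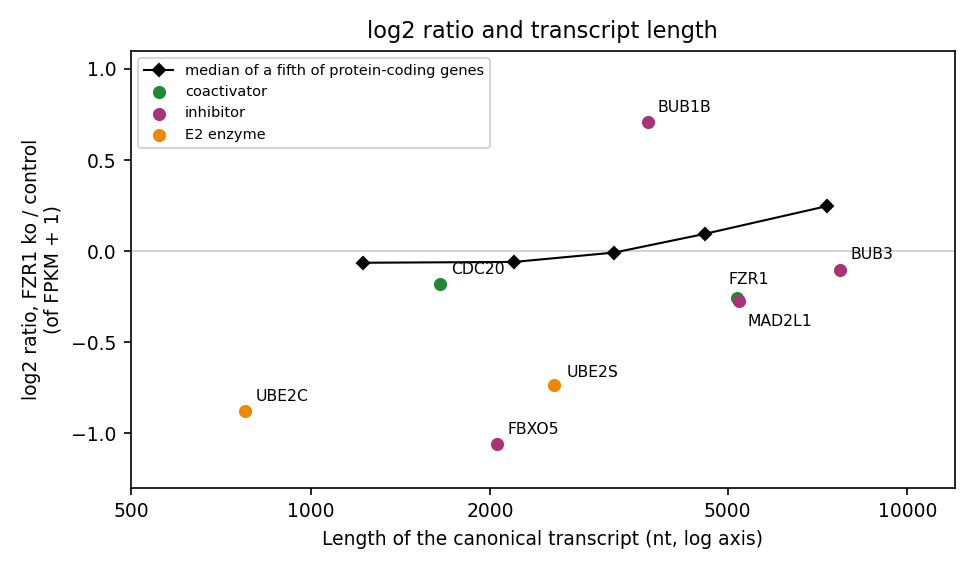
Log2 ratio against the length of the canonical transcript in nt (log axis) for the 8 genes, coloured by role, with the medians of 5 equal groups of protein-coding genes as black diamonds. The medians run from -0.064 to 0.25, and the 8 genes from -1.06 (FBXO5) to 0.71 (BUB1B).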

How the data were processed

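Sequencing of the 2 RNA libraries used a BGISEQ-500. The submitters' processing notes name Trimmomatic 0.36, HISAT2 2.1.0, Bowtie2 2.2.5 and RSEM with hg38, while the study's methods give another version of Bowtie2. The authors deposited FPKM per Entrez gene ID with 2 decimals, with no counts, and the filters are not given in the sources used here. The table has 24663 rows, of which 1630 hold no value. Symbols for 22925 of 23033 genes came from RefSeq of GRCh38.p14.

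Log2 ratios were computed with a pseudocount of 1 FPKM for genes that reached 1 FPKM in one library or both, and a difference of 2-fold on this scale was the threshold. A pseudocount pulls the ratios of low genes towards 0. No test was made, as each group has 1 library. The computation was tested on simulated data. Transcript length and GC content were those of canonical GENCODE 44 transcripts matched by symbol (97.0% of genes compared), and to remove their trend each ratio was set against the median of its group in a 10 by 10 grid of quantiles. Guides were matched exactly within FZR1 only. A further gene of the set is not reported here. The genes and lists were chosen with earlier results of these data known. Named from the lists were genes past 2-fold, or otherwise the 2 farthest from 0, and defining markers. With 2 libraries a pattern is 1 ratio, so genes of like pattern were not ranked. Python 3.11.15, numpy 2.4.6, pandas 2.3.3 and matplotlib 3.10.9 were used.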

Additional observations from a re-analysis of the deposited data

How the results depend on the processing

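Removal of the trend with length and GC content was chosen after the data were seen. No paired analysis was possible because there is a single library of each genotype and no test was run, and for the same reason no library could be left out. The direction of each of the 8 genes was kept under the 7 alternatives other than another threshold. The number past 2-fold, 1 of 8, was 0 with a pseudocount of 5 FPKM, 0 at a 4-fold threshold, 0 with the trend of length and GC content removed, and 4 (3 lower) at 1.5-fold. Of all genes compared, 920 were 2-fold higher and 911 lower, against 1463 and 1361 with a pseudocount of 0.1 FPKM, 183 and 270 with one of 5 FPKM, 61 and 89 at 4-fold, and 770 and 851 (of 13145) with the trend removed. Fewer or more genes pass a higher or lower threshold or pseudocount by construction. The median of the 8 genes, -0.27, was -0.34 with the trend removed. With a pseudocount of 5 FPKM, 1 checkpoint gene, 0 core subunits, 0 of UBE2D2, UBE2D3 and UBE2D4 and 0 luminal genes were past 2-fold, and the medians of those 3 genes and of the mesenchymal and basal list were 0.62 and 0.46. With the trend removed, 0 core subunits and 2 of those 3 genes were past 2-fold. With no filter on low values the median of the luminal list was -0.032 in place of 0.082, and that of the mesenchymal and basal list was 0.013 in place of 0.63. Under the alternatives, another 133 values of the list summaries moved by less than 0.1 or, for counts, by at most 1.5 times. The depth is unknown, so the counting error of each value could not be given.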

Other observations

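Among the other ubiquitin-conjugating enzymes, several low mRNAs were higher in FZR1 ko. UBE2L6, the E2 enzyme of ISG15, was at 1.36 FPKM in control cells and at 5.72 FPKM in ko cells (log2 ratio 1.51). UBE2E2 had 0.88 and 3.68 FPKM (1.32), and UBE2K, which extends ubiquitin chains, had 7.35 and 15.9 FPKM (1.02). UBE2E1, whose enzyme can also work with the APC/C in vitro, had 19.7 and 37.8 FPKM (0.91), opposite in direction to UBE2C. These genes were named after their values were seen, and UBE2L6 and UBE2E2 lay near 1 FPKM in control, where few reads can make up a value.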
